A study of Mus musculus with 12 samples.

Results

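The aryl hydrocarbon receptor (AHR) pathway was followed through 6 genes, Ahr, Arnt, Ahrr, Tiparp, Cyp1a1 and Cyp1b1, on arrays of mouse splenic follicular B cells with and without the transcriptional repressor Bach2. The members are all noncontrol probes whose RefSeq accession belongs to 1 of these 6 symbols, 10 of the 55681 noncontrol probes on the array. Ahr, Arnt, Ahrr and Tiparp each have 2 probes, and Cyp1a1 and Cyp1b1 have 1 each. The genes were chosen by name, with their measured group differences on these arrays already known and with no threshold on any value, so the tests below describe them and are not independent evidence. The 12 samples form 4 groups of 3 arrays: WT before stimulation (0 h), WT after 24 h, Bach2-/- at 0 h and Bach2-/- after 24 h. All cells are labelled as follicular B cells from the spleens of male C57BL/6J mice. The 24 h cells were cultured with a Fab' antibody against mouse IgM at 10 µg/mL, which engages the B cell receptor. Culture and receptor engagement cannot be told apart, because every 24 h sample had both. The labels do not give the mice's age, the form of the Bach2 allele, the sort gate or whether RNA of several mice was pooled. The study was set up around the poor proliferation of Bach2-/- follicular B cells on receptor engagement.

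AHR is a ligand-activated transcription factor of the basic helix-loop-helix PAS family. Without ligand it rests in the cytoplasm with HSP90 and its cochaperones. After binding a ligand, such as a dioxin or a tryptophan metabolite, it enters the nucleus, pairs with ARNT and binds xenobiotic response elements, whose core is GCGTG. AHRR competes with AHR for ARNT and for these elements. Tiparp encodes a mono-ADP-ribosyltransferase that modifies AHR and limits its activity, and Cyp1a1 and Cyp1b1 encode oxygenases that break down many ligands. Ahrr, Tiparp, Cyp1a1 and Cyp1b1 are commonly used readouts of AHR activity. In B cells, AHR is known to be induced by activating stimuli.

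The promoters of 3 readout genes whose signal rose at 24 h, Cyp1a1, Ahrr and Tiparp, are shown together with that of Cyp1b1, whose signal stayed at background. Each window is the RefSeq sequence of build GRCm38.p6 from 250 bases before to 50 bases after the gene's start, 300 bases in all, written 5′ to 3′ on the gene's strand. The windows are chr9:57697363-57697662 (plus strand) for Cyp1a1, chr13:74292282-74292581 (minus strand) for Ahrr, chr3:65528197-65528496 (plus strand) for Tiparp and chr17:79715012-79715311 (minus strand) for Cyp1b1. Capitals mark the core GCGTG, or CACGC where it lies on the opposite strand.
Cyp1a1: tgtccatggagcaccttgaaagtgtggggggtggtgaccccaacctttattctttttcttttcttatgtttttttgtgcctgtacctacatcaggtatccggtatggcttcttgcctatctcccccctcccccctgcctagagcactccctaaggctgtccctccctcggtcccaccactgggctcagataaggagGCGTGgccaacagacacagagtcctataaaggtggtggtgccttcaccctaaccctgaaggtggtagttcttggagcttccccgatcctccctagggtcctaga
Ahrr: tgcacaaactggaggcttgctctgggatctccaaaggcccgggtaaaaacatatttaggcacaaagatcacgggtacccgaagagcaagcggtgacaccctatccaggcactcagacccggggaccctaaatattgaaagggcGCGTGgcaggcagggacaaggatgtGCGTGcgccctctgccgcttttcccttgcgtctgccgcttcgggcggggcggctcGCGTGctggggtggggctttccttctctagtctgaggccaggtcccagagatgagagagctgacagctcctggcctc
Tiparp: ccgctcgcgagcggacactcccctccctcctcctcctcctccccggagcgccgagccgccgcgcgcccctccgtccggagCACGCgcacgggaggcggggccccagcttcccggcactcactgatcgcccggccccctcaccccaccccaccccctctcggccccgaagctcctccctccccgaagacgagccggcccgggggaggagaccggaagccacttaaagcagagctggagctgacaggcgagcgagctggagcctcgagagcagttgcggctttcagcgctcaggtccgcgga
Cyp1b1: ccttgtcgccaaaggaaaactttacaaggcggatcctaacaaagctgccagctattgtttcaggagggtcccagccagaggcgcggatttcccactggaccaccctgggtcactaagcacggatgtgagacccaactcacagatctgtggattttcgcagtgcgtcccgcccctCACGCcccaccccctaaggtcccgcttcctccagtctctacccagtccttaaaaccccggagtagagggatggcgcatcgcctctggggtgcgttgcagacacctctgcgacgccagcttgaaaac

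The core occurred once in the windows of Cyp1a1, Tiparp and Cyp1b1, and 3 times in that of Ahrr. Arnt, with its window at chr3:95434140-95434439 (plus strand), also held 1 core. Of 32851 promoter windows of the same length, 32.4% hold the core on either strand, so 1 match says little by itself. The longer form TNGCGTG, which contains the core, was found once, in the Ahrr window, and in 5.07% of all windows. The AP-1 type element TGANTCA was in none of these 5 windows and in 7.81% of all windows. The MAF recognition element, a longer form of that element which Bach2 is known to bind, was in none of the 5 and in 0.423% of all windows. Elements outside these windows, such as the well-known enhancer farther upstream of Cyp1a1, were not searched. The table used for these sequences matched 5 of the 6 members, all but Ahr.

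Signals are given as log2 of the background-corrected intensity over the 75th percentile of all probes of the same array, so that 0 is a probe at that percentile. They are levels relative to the other RNAs of a sample, and fewer cells of a type and less RNA per cell cannot be told apart. A probe entered the tests if it stood well above background, by the scanner software's flag, on all 3 arrays of at least 1 group. Of the members, 8 probes and 5 genes passed, all but Cyp1b1 and the second Ahrr probe. Ahrr and Cyp1a1 passed only through their 24 h groups, so that a difference from 0 h was built into their selection. A gene with several probes was represented by its brightest. Differences are fitted log2 differences ± SE from limma over all 12 arrays, 3 per group, with p-values adjusted over all 22744 genes by the Benjamini-Hochberg method, and an adjusted p under 0.05 passed the test. The labels do not say that replicates came from separate mice, and part or all of the spread that the p-values measure may be technical.

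The arrays lie on 2 slides. Array 1 of every group is on slide 2, and arrays 2 and 3 are on slide 1. The intensity at the 75th percentile ran from 87.4 to 307 over the arrays, and between 50.5% and 66.7% of noncontrol spots stood well above background. The lowest values belong to Bach2-/- 24 h array 2. Bach2-/- 0 h array 1 had 0 of 5 Y-linked probes well above background, against 3 to 5 on the other arrays, although all samples are labelled male. Results that rest on these 2 arrays are given with and without them. The Bach2 probe measured 3.99, 3.40 and 3.69 in WT at 0 h against 1.33, 0.96 and 1.10 in Bach2-/-, a difference of -2.56 ± 0.30 (limma adjusted p = 0.0024). At 24 h the difference was -3.75 ± 0.30 (limma adjusted p = 5.53e-05), with all 12 arrays on the side their label gives. The labels do not say whether this probe lies in the deleted part of Bach2. All 11 follicular B cell markers on the array, among them Ms4a1 and Cr2, stood well above background on all arrays. So did all 9 tested T cell, all 7 tested plasma cell and all 5 tested dendritic cell markers, so this does not tell cell types apart.

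**Figure D1:**
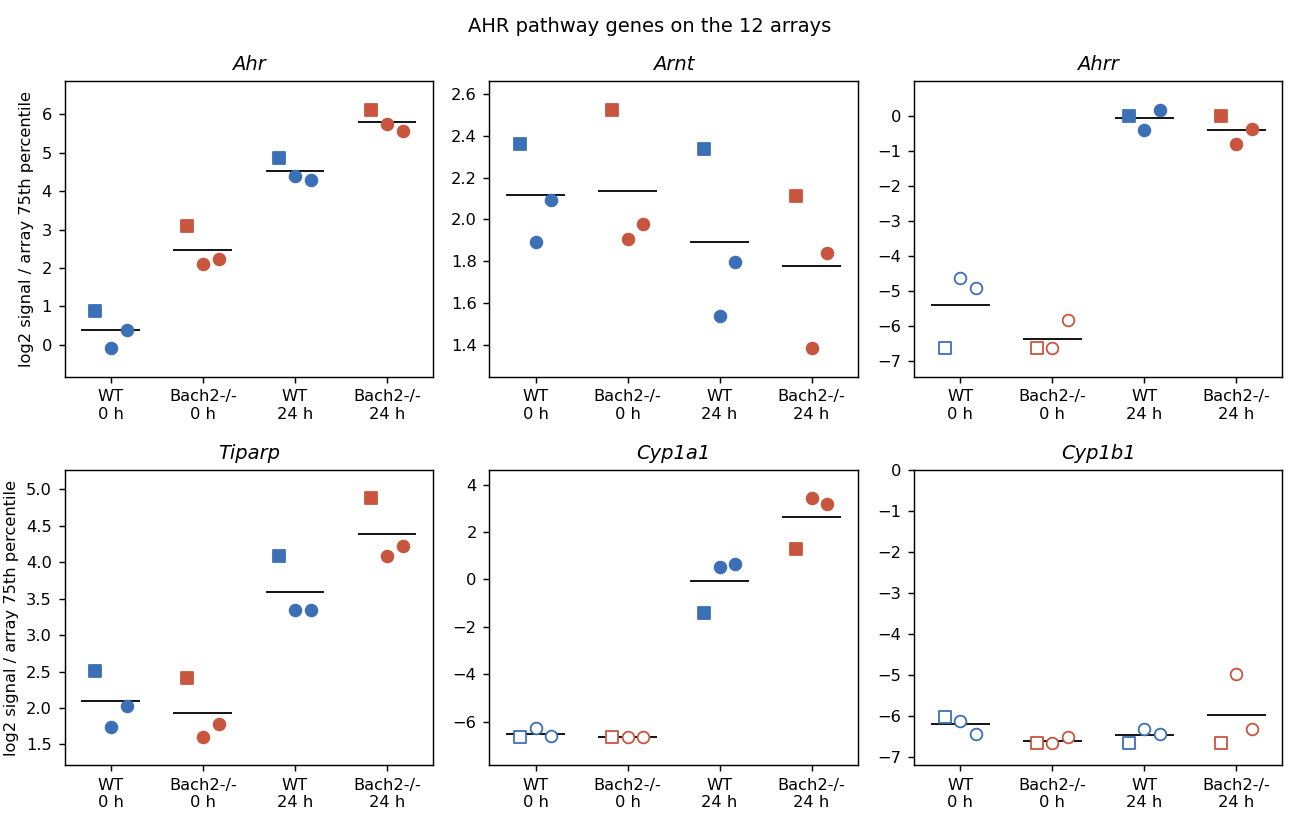
Log2 signal over the array's 75th percentile for the brightest probe of each of the 6 genes, with 1 point per array, blue for WT and red for Bach2-/-; squares are slide 2, circles are slide 1, open symbols are arrays not well above background and bars are group means of 3 arrays. The Ahr arrays of the 4 groups form 4 steps without overlap, Cyp1a1 and Ahrr leave background at 24 h, and Cyp1b1 stays at background on all arrays.

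Ahr, the receptor itself, was higher in unstimulated Bach2-/- cells than in WT cells and rose strongly in both genotypes within 24 h. Its signal at 0 h was 0.88, -0.088 and 0.40 on the WT arrays 1, 2 and 3, and 3.08, 2.11 and 2.24 on the Bach2-/- arrays. After 24 h it was 4.86, 4.41 and 4.30 in WT cells and 6.13, 5.75 and 5.57 in Bach2-/- cells. The group means climbed from 0.40 ± 0.48 (SD, n = 3) in WT at 0 h through 2.48 ± 0.53 in Bach2-/- at 0 h and 4.52 ± 0.30 in WT at 24 h to 5.82 ± 0.28 in Bach2-/- at 24 h. No array of one group overlapped with any array of the next group in this order.

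At 0 h, Ahr was 2.08 ± 0.34 higher in Bach2-/- cells, or 4.23-fold (limma adjusted p = 0.0163), and it was higher in 3 of 3 pairs of arrays with the same number. It was the 1 member of 5 tested that passed at 0 h, against 0.629% of all genes, and groups without overlap occurred for 12.1% of all genes. Without both arrays that stand apart the difference was 1.78, with a limma adjusted p of 0.0693. Leaving out WT array 2 or 3 or Bach2-/- array 1 or 3 of 0 h also brought the limma adjusted p above the threshold, to between 0.0564 and 0.0867. On slide 1 alone the difference was 2.02 (limma adjusted p = 0.00987), and the pair on slide 2 differed by 2.20.

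At 24 h, Ahr differed by 1.29 ± 0.34 between the genotypes (limma adjusted p = 0.0724), which did not pass, although the arrays did not overlap. The 3 same-number pairs differed by 1.27, 1.34 and 1.27, all in the same direction. The deviations of the arrays from their group means went with the replicate number and the slide, which cannot be fully told apart. With the replicate number as a block the adjusted p of limma was 0.00103. On slide 1 alone it was 0.0219, with a difference of 1.31.

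The 24 h rise of Ahr was 4.13 ± 0.34 in WT cells, or 17.5-fold (limma adjusted p = 1.73e-05). In Bach2-/- cells it was 3.34 ± 0.34, or 10.1-fold (limma adjusted p = 4.92e-05). The difference between these rises, -0.79 ± 0.48, did not pass the test (limma adjusted p = 0.838), nor did it with the replicate block (limma adjusted p = 0.0823).

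The second Ahr probe was much dimmer, with intensities of 8.01 to 19.4 at 0 h, and did not follow the brighter one in all respects. Its signal at 0 h was -4.71, -4.28 and -4.07 in WT, with array 2 not well above background, and -4.32, -3.33 and -3.56 in Bach2-/-. At 24 h it was -2.40, -2.02 and -1.94 in WT and -1.14, 0.49 and -0.33 in Bach2-/-. Both probes thus rose in both genotypes, by 2.23 ± 0.40 (limma adjusted p = 0.00268) in WT and by 3.41 ± 0.40 (limma adjusted p = 0.000154) in Bach2-/- on the dim probe, with p adjusted over all 30735 probes tested. The genotypes differed on the dim probe by 0.61 ± 0.40 at 0 h (limma adjusted p = 1.0) and by 1.79 ± 0.40 at 24 h (limma adjusted p = 0.0380). The difference of the rises was 1.18 ± 0.57 there (limma adjusted p = 0.719), opposite in sign to that of the bright probe. In this fit over probes 0.625% passed at 0 h, 2.72% at 24 h, 20.6% in the WT response and 13.3% in the Bach2-/- response.

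Arnt, the partner of AHR, passed in none of the comparisons. Its signal was 2.36, 1.89 and 2.09 in WT at 0 h and 2.53, 1.91 and 1.98 in Bach2-/- at 0 h. At 24 h it was 2.34, 1.54 and 1.79 in WT and 2.11, 1.38 and 1.84 in Bach2-/-. All 4 groups overlapped, and in each of them array 1, on slide 2, was the highest. The genotypes differed by 0.020 ± 0.30 at 0 h and by -0.11 ± 0.30 at 24 h (limma adjusted p = 1.0 and 0.927). The 24 h change was -0.23 ± 0.30 in WT and -0.36 ± 0.30 in Bach2-/- (limma adjusted p = 0.684 and 0.585). A second, dimmer Arnt probe gave 24 h changes of the opposite sign, 0.37 ± 0.24 and 0.43 ± 0.24 (limma adjusted p = 0.323 and 0.327), so no direction can be given for Arnt.

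Ahrr, which encodes the repressor of AHR, left background at 24 h in both genotypes and did not pass between them. At 0 h its brighter probe was not well above background on any of the 6 arrays, with intensities of 1.71 to 6.65. At 24 h it was well above background on all 6, with log2 signals of 0.0027, -0.40 and 0.17 in WT and -0.022, -0.80 and -0.38 in Bach2-/-. The rise was at least 26.8-fold in WT and at least 21.7-fold in Bach2-/-. The fitted rises were 5.32 (limma adjusted p = 3.17e-05) and 5.98 (limma adjusted p = 8.22e-06) on the log2 scale. They rest on 0 h values below background, so their size cannot be read, and these p-values do not test the bounds. These bounds set the 24 h mean against the lowest signal that counted as well above background on each 0 h array, or the probe's own signal where that was higher. That lowest signal is no strict detection limit. On WT 0 h array 1 the second Ahrr probe was not well above background at -5.55, although the lowest signal counted there was -5.83. Every fold given as at least a value, here and below, is a minimum in this sense only. The bounds were computed under the main background correction alone. Under normexp, another correction, the fitted rise of Ahrr was 2.01 on the log2 scale in WT and 1.87 in Bach2-/-, which is smaller than the bounds. Normexp was run with a constant added to every signal, larger than these 0 h intensities, which shrinks rises from dim signals. Its smaller rises therefore do not test the bounds. At 24 h the genotypes differed by -0.32 ± 0.47 (limma adjusted p = 0.848), with overlapping arrays. At 0 h both groups were below background, and no fold can be given. The second Ahrr probe was well above background on 0 of 6 arrays at 0 h and on 2 of 3 arrays of each genotype at 24 h, and was not tested.

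Tiparp, which encodes the ADP-ribosyltransferase that restrains AHR, was well above background throughout and rose in both genotypes. Its signal at 0 h was 2.50, 1.74 and 2.03 in WT and 2.41, 1.61 and 1.78 in Bach2-/-. At 24 h it was 4.08, 3.34 and 3.34 in WT and 4.87, 4.08 and 4.22 in Bach2-/-. At each time the ranges of the genotypes overlapped, at 24 h because WT array 1 was as high as Bach2-/- array 2, while no 0 h array reached a 24 h array of its genotype.

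The 24 h rise of Tiparp was 1.49 ± 0.34, or 2.82-fold, in WT cells (limma adjusted p = 0.00946) and 2.46 ± 0.34, or 5.51-fold, in Bach2-/- cells (limma adjusted p = 0.000444). At 0 h the genotypes differed by -0.16 ± 0.34 (limma adjusted p = 1.0). At 24 h the difference of 0.80 ± 0.34 did not pass (limma adjusted p = 0.345). Within same-number pairs it was 0.79, 0.74 and 0.88, and with the replicate block it passed (limma adjusted p = 0.00273), as did the difference of the rises, 0.97 (limma adjusted p = 0.0197 with the block and 0.747 without). On slide 1 alone neither passed, with limma adjusted p of 0.0776 and 0.286. The second Tiparp probe gave rises of 1.50 ± 0.27 in WT (limma adjusted p = 0.0027) and 2.63 ± 0.27 in Bach2-/- (limma adjusted p = 5.58e-05), and a genotype difference of 0.99 ± 0.27 at 24 h that did not pass (limma adjusted p = 0.0895).

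Cyp1a1, the oxygenase gene most used to read out AHR activity, was below background in all 0 h samples and was induced in both genotypes, to a higher level in Bach2-/- cells. At 0 h the probe was not well above background on any of the 6 arrays, with intensities of 1.44 to 2.05. At 24 h the log2 signal was -1.42, 0.54 and 0.67 in WT and 1.29, 3.43 and 3.17 in Bach2-/-. Every Bach2-/- array was above every WT array, and in both genotypes array 1, on slide 2, was the lowest.

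The rise was at least 26.9-fold in WT and at least 177-fold in Bach2-/-. The fitted rises were 6.44 (limma adjusted p = 4.12e-05) and 9.27 (limma adjusted p = 2.02e-06) on the log2 scale. They rest on 0 h values below background, so their size cannot be read, and these p-values do not test the bounds. Under normexp the fitted rise was smaller than these bounds, 2.30 in WT and 4.48 in Bach2-/- on the log2 scale. The constant added there shrinks rises from dim signals, so this does not test the bounds. At 24 h the genotypes differed by 2.70 ± 0.60, or 6.50-fold (limma adjusted p = 0.0339), and by 2.71, 2.89 and 2.50 in the same-number pairs. This SE pools the spread of all 4 groups. The SD of Cyp1a1 was 0.21 in WT and 0 in Bach2-/- at 0 h, at or near the lowest value allowed. At 24 h it was 1.17 in both genotypes. With only the compared groups fitted, the genotype call was lost. Cyp1a1 was the 1 member of 5 that passed at 24 h, against 2.98% of all genes, and groups without overlap occurred for 15.3% of all genes. Without both arrays that stand apart the difference was 2.30 (limma adjusted p = 0.157). The call was also lost on leaving out any 1 of 8 single arrays, with limma adjusted p from 0.0533 to 0.137. Those were WT 0 h arrays 2 and 3, WT 24 h arrays 1 and 2, Bach2-/- 0 h arrays 2 and 3 and Bach2-/- 24 h arrays 2 and 3. On slide 1 alone it was 2.70 (limma adjusted p = 0.00084), and on slide 2 the pair differed by 2.71. The difference of the rises, 2.83 ± 0.85, did not pass without a block (limma adjusted p = 0.354) and passed with the replicate block (limma adjusted p = 0.0363). That difference rests on 0 h values below background in both genotypes, so its size cannot be read.

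Cyp1b1 stayed at background. Its probe was not well above background on any of the 12 arrays, with intensities of 1.80 to 4.58, so it was not tested and no fold can be given in any comparison. The Cyp1a1 probe, by contrast, was well above background on 6 of the 12 arrays.

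**Figure D2:**
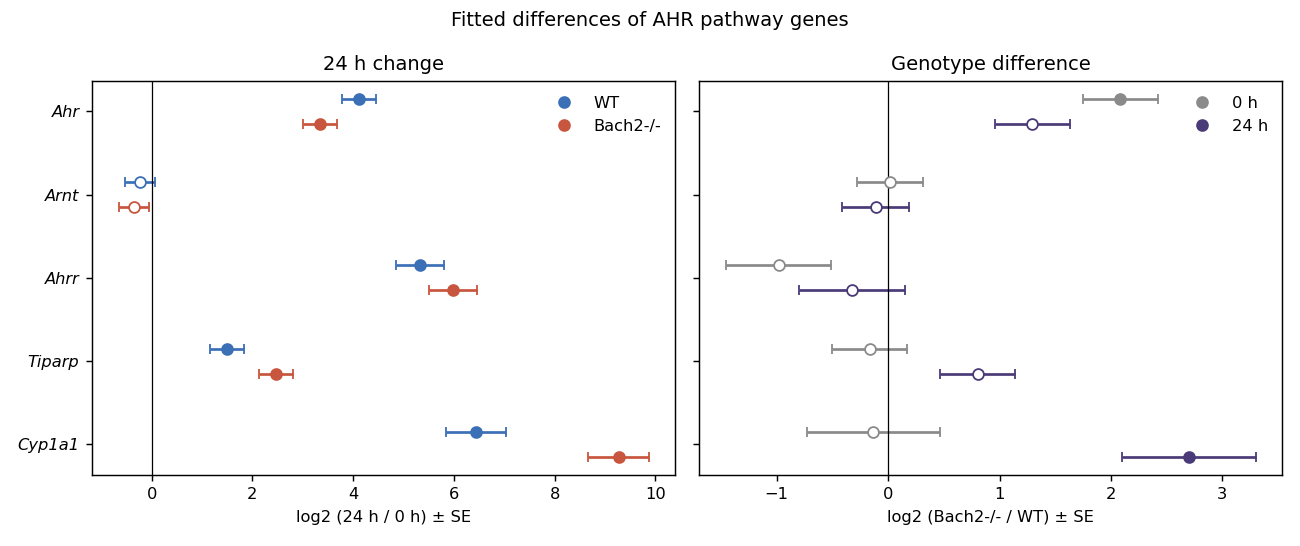
Fitted log2 differences ± SE of the 5 tested genes, the 24 h change in WT (blue) and Bach2-/- (red) at left and the genotype difference at 0 h (grey) and 24 h (purple) at right; filled points have an adjusted p under 0.05. Ahr, Ahrr, Tiparp and Cyp1a1 are filled for both 24 h changes, and between genotypes the filled points are Ahr at 0 h (2.08) and Cyp1a1 at 24 h (2.70); Ahrr and Cyp1a1 at 0 h lay below background in both genotypes.

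Across the pathway, 4 of the 5 tested members, all but Arnt, rose in the WT response, in which 11.5% of all genes rose and 20.5% changed. The same 4 members rose in the Bach2-/- response, in which 5.5% of all genes rose and 13.2% changed. Ahrr and Cyp1a1 were tested only because they were above background at 24 h, so nothing is read from these counts against those shares. With the replicate block 3 members passed between genotypes at 24 h, Ahr, Tiparp and Cyp1a1, against 18.7% of all genes with that block. Tiparp and Cyp1a1, 2 members, passed in the difference of the 24 h changes with the block, against 4.28% of all genes, and for Cyp1a1 that call rests on the 0 h values below background. The block raised the shares of all genes to 3.7% between genotypes at 0 h, 47% in the WT response and 33.5% in the Bach2-/- response. Without the 2 arrays that stand apart the shares were 0.457% at 0 h, 2.45% at 24 h, 25.1% in the WT response, 14% in the Bach2-/- response and 0.352% in the difference. In the main fit, with all arrays and without the block, 0 members passed the limma test in the difference of the 24 h changes, against 0.317% of all genes. There 1 member, Cyp1a1, had an unadjusted p under 0.05. The response and genotype comparisons share groups, so these counts are not independent of one another. The plot of paired differences shows the 24 h values of these 3 genes pair by pair.

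**Figure D3:**
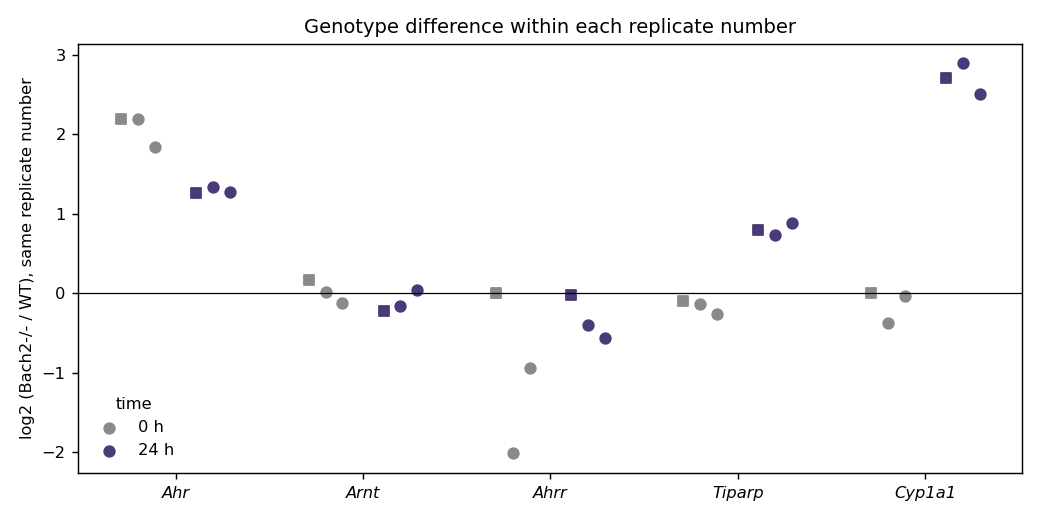
Bach2-/- minus WT log2 signal within each replicate number for the 5 tested genes, grey at 0 h and purple at 24 h; squares are the pair on slide 2 and circles the 2 pairs on slide 1. At 24 h the pairs span 1.27 to 1.34 for Ahr, 0.74 to 0.88 for Tiparp and 2.50 to 2.89 for Cyp1a1, and the 0 h points of Ahrr and Cyp1a1 are below background.

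By Pearson correlation of the log2 signal over the 12 arrays with 13054 other named genes, Ahr was most like Tcf4 (r = 0.989), Rgs10 (0.989), Bcl2l11 (0.987), Prxl2a (0.986) and Cish (0.985). Tiparp was most like Zfp36l1 (0.987), Ccdc50 (0.986) and Arhgap22 (0.985), and Cyp1a1 was most like Lmbrd2 (0.986), Hivep3 (0.984) and Insig1 (0.979). Ahrr was most like Nab2 (0.976), Bcl2l1 (0.975) and Hic1 (0.974), and Arnt most like Mdm2 (0.982), Ibtk (0.980) and Cnot8 (0.977). Among the members, Ahr correlated with Tiparp at 0.901, with Cyp1a1 at 0.890, with Ahrr at 0.808 and with Arnt at -0.31. These points share 4 groups and 2 slides, so the coefficients describe mostly the steps between groups.

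Other genes around the pathway were taken from 5 lists. Over all genes, 20.5% passed in the WT response, 13.2% in the Bach2-/- response and 0.317% in the difference of the 24 h changes. Between genotypes 0.629% passed at 0 h and 2.98% at 24 h. The lists were not tested against these shares. Of the 10 chaperones, partners and coactivators of AHR, 9 were tested. In WT cells 3 rose at 24 h, Hsp90aa1 by 1.02, Hsp90ab1 by 1.40 and Ptges3, the p23 cochaperone gene, by 1.17, and Ep300, a coactivator, fell by 0.85. In Bach2-/- cells 0 of the 9 passed the limma test at 24 h, with 1 higher and 1 lower at an unadjusted p under 0.05, and 1 rose without the 2 arrays that stand apart. With the replicate block 2 rose and 3 fell in Bach2-/- cells, and 5 rose and 3 fell in WT cells. With that block 33.5% of all genes passed in the Bach2-/- response and 47% in the WT response. Between genotypes 0 passed at either time, with 0 at 0 h and 1 at 24 h at an unadjusted p under 0.05. In the difference of the 24 h changes 0 of the 9 passed the limma test. The median change of the list was 0.80 in WT and 0.18 in Bach2-/- cells, against 0.040 and 0.072 over all genes. These 4 genes, and others named below for a response alone, were picked after their values were seen.

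Of 16 further AHR target genes on the array, 8 were tested. Nqo1, the quinone oxidoreductase gene that both AHR and NRF2 are known to induce, rose in both genotypes. Its signal was below background on all 6 arrays at 0 h, so it entered the tests only through its 24 h groups, and a rise was built into its selection. At 24 h it was -0.25, -1.20 and -0.77 in WT cells and 2.77, 2.05 and 2.33 in Bach2-/- cells, with no overlap. The rise was at least 16.9-fold in WT and at least 149-fold in Bach2-/-. The fitted rises were 5.59 (limma adjusted p = 2.32e-06) and 8.39 (limma adjusted p = 5.59e-08) on the log2 scale. They rest on 0 h values below background, and these p-values do not test the bounds. Under normexp, with its added constant, the fitted rises of Nqo1 were smaller, 1.57 in WT and 4.09 in Bach2-/- on the log2 scale. This does not test the bounds either. The genotypes differed at 24 h by 3.13 ± 0.32 (limma adjusted p = 0.00029).

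Il10, which encodes an anti-inflammatory cytokine, was below background on all 3 WT arrays at 24 h, and its signal in Bach2-/- cells was -3.05, -2.61 and -2.21. It was at least 3.52-fold higher there, by a bound set in the same way against the WT 24 h arrays. The fitted difference was 2.22 (limma adjusted p = 0.00838), and this p-value does not test the bound. Il10 entered the tests only through the Bach2-/- groups, being above background on 1 of 3 WT arrays at 0 h, so a higher value in Bach2-/- was built into its selection. The Il10 call was lost under normexp (difference 0.54, limma adjusted p = 0.602). The constant added there shrinks differences of signals as dim as these, so little can be read from this loss. Lpcat2, a lysophospholipid acyltransferase gene, fell at least 1.71-fold in WT at 24 h, but it entered the tests only through WT at 0 h, so a fall was built in. Its fitted change was -1.76 (limma adjusted p = 0.0135), and this p-value does not test the bound. The other 5 tested targets, among them Aldh3a1 and Nfe2l2, the gene of NRF2 itself, passed in no comparison. The median genotype difference of the list at 24 h was 0.24, against -0.053 over all genes.

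Among 13 other bHLH-PAS factors, 7 were tested. Npas4, known as an activity-induced factor of neurons, was -1.66, -1.55 and -1.61 in WT at 24 h and 1.05, 0.35 and 0.33 in Bach2-/-. The genotypes differed by 2.18 ± 0.27 (limma adjusted p = 0.000822). In WT cells Npas4 rose by 0.82 ± 0.27, a call near the threshold (limma adjusted p = 0.0479), and in Bach2-/- cells by 3.44 ± 0.27 (limma adjusted p = 6.74e-06). The WT call was lost on leaving out any 1 of 9 single arrays. Hif3a, a hypoxia-inducible factor gene, fell by 1.69 in WT at 24 h. Its change of -0.36 in Bach2-/- did not pass (limma adjusted p = 0.578). Bach2-/- minus WT, Hif3a differed by -1.38 ± 0.29 at 0 h, which did not pass (limma adjusted p = 0.0704), and by -0.046 at 24 h. Arntl, a core clock gene, fell by 1.08 in Bach2-/-. Its change of -0.96 in WT was just short of the threshold (limma adjusted p = 0.0544). For neither did the difference of the 24 h changes pass (limma adjusted p = 0.374 and 0.981). Without the 2 arrays that stand apart, 0 genes of this list fell in Bach2-/-. Hif1a, Epas1, Clock and Sim2 passed in no comparison.

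Enzymes that make or convert tryptophan-derived AHR ligands were followed in a list of 12, of which 10 are on the array and 5 were tested. Kynu, the kynureninase gene, was 0.83, -0.88 and -0.62 in WT at 24 h and -2.55, -2.51 and -3.24 in Bach2-/-, a difference of -2.55 ± 0.49 (limma adjusted p = 0.0170). The call was lost under normexp (-1.25, limma adjusted p = 0.287), with only the compared groups fitted (limma adjusted p = 0.0601) and without Bach2-/- 24 h array 3 (-2.31, limma adjusted p = 0.0786). The constant added under normexp shrinks differences of dim signals. Kynu fell by 3.82 ± 0.49 in Bach2-/- cells at 24 h (limma adjusted p = 0.000288). In WT its change was -1.02 ± 0.49 (limma adjusted p = 0.181), and the difference of the changes did not pass (limma adjusted p = 0.199). Il4i1, whose amino acid oxidase is known to yield AHR ligands, rose by 1.46 at 24 h in both genotypes, and Haao fell in both, by 1.47 in WT and by 1.60 in Bach2-/-. Kmo and Afmid each fell by 1.40 in Bach2-/- cells. In WT they fell by 1.19 and 1.06, just short of the threshold (limma adjusted p = 0.0501 and 0.0558). Their falls did not differ between genotypes by the test (limma adjusted p = 0.970 and 0.934). In Bach2-/- cells 4 genes of the list fell, and 2 did so without the arrays that stand apart.

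Of 10 further PARP family genes, relatives of Tiparp, 9 were tested and 0 rose in any comparison (limma), with 1 higher in each response at an unadjusted p under 0.05. With the replicate block 1 rose in each response. Parp3 was 0.32, 0.15 and 0.046 in WT at 24 h and -1.20, -1.90 and -2.36 in Bach2-/-, a difference of -2.00 ± 0.29 (limma adjusted p = 0.00285). At 24 h 4 fell in WT, Parp3, Parp4, Parp9 and Parp14, and these 4 and Parp10 fell in Bach2-/-. The change of Parp10 in WT was -0.82, which did not pass (limma adjusted p = 0.192). Without the arrays that stand apart, 2 fell and 1 rose in Bach2-/-. The median change of the list was -0.69 in WT and -0.78 in Bach2-/- cells. Between genotypes at 0 h, 0 genes of these 5 lists passed the limma test, while 3 were higher and 3 lower at an unadjusted p under 0.05. With the replicate block, 1 AHR target and 1 kynurenine enzyme were higher and 1 bHLH-PAS and 1 PARP gene lower at 0 h. The block took the genes higher in Bach2-/- at 24 h from 2 to 3 among the AHR targets and from 0 to 1 among the kynurenine enzymes. It took the genes lower there from 1 to 3 in the PARP list and from 0 to 1 among the chaperones. In the WT response the block gave 2 AHR targets that rose and 3 that fell, 4 kynurenine enzymes, 2 bHLH-PAS genes and 7 PARP genes that fell. In the Bach2-/- response 8 PARP genes and 1 AHR target fell with it, and 1 kynurenine enzyme was lower in the difference of the 24 h changes. Of all genes, 47% passed with the block in the WT response, 33.5% in the Bach2-/- response and 4.28% in the difference. Between genotypes it was 3.7% at 0 h and 18.7% at 24 h, and nothing is read from the block counts against these shares.

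**Figure D4:**
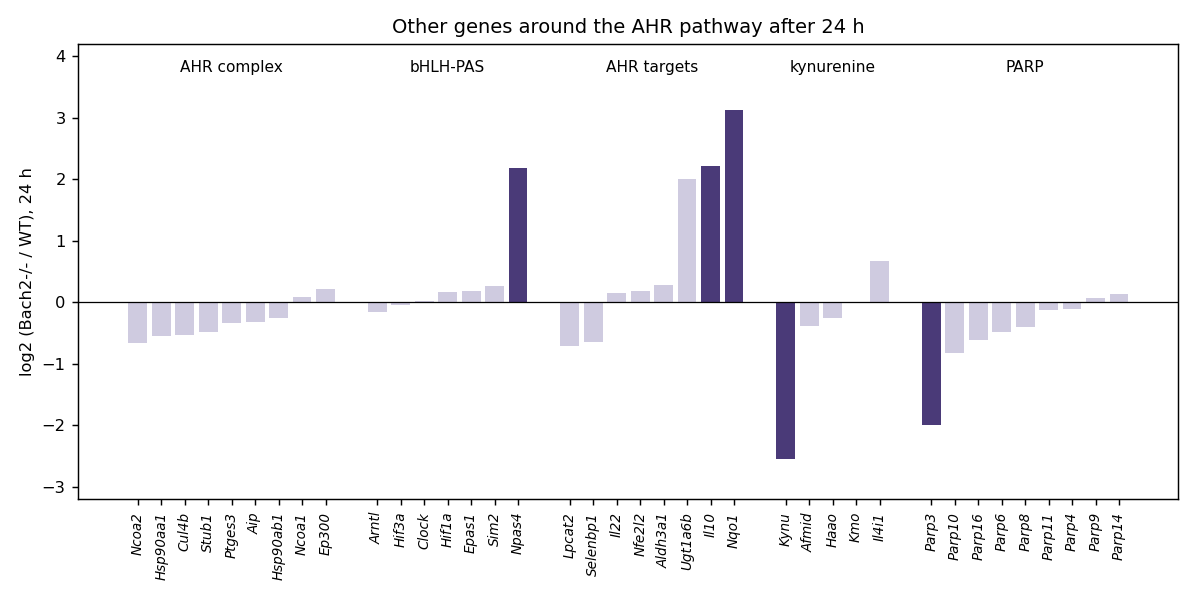
Fitted log2 difference between Bach2-/- and WT at 24 h (bars from 0) for the tested genes of the 5 lists around the AHR pathway; dark bars have an adjusted p under 0.05. The dark bars are Npas4 (2.18), Il10 (2.22) and Nqo1 (3.13) above 0 and Kynu (-2.55) and Parp3 (-2.00) below; the Il10 bar sets Bach2-/- cells against WT arrays below background.

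Markers of other cells moved with genotype, and their part in the differences above was not tested. Of all genes, 0.629% passed between genotypes at 0 h and 2.98% at 24 h. Signals summed over a list are in multiples of the array's 75th percentile. Of 9 tested marginal zone B cell markers, 4 were higher in Bach2-/- at 0 h, with a summed signal of 527 to 1049 against 221 to 339 in WT. At 24 h 3 were higher and 3 lower, with 267 to 462 against 172 to 370. Of 7 tested plasma cell markers, 2 at 0 h and 3 at 24 h were higher, among them Prdm1 by 3.39 and 4.94, with sums of 370 to 632 against 115 to 175 at 0 h and of 207 to 358 against 106.6 to 192 at 24 h. Of 9 B-1 cell markers, 3 at 0 h and 5 at 24 h were higher, with sums of 66.9 to 91.2 against 44.2 to 79.9 and of 92.6 to 111 against 42.6 to 50.9.

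The summed signals of macrophage and of neutrophil markers overlapped between genotypes at both times, and those of erythroid and platelet markers at neither. Of 7 tested macrophage markers, Ms4a7 at 0 h, and Ms4a7 and Lyz2 at 24 h, were higher in Bach2-/-, while Adgre1 and Csf1r passed at neither time. Their summed signal was 10.4 to 13.2 in Bach2-/- against 4.57 to 15.2 in WT at 0 h, and 8.90 to 19.8 against 9.29 to 12.5 at 24 h. Of 8 neutrophil markers 0 passed the limma test between genotypes, with 4 at 0 h and 5 at 24 h higher at an unadjusted p under 0.05 and median differences of 2.55 and 2.94. Their sums were 29.1 to 59.0 against 12.5 to 34.4 at 0 h and 12.9 to 56.2 against 1.78 to 18.7 at 24 h. Of 4 tested erythroid and platelet markers, 0 passed the limma test at 0 h, with 2 higher at an unadjusted p under 0.05, a median difference of 2.15 and sums of 19.1 to 58.3 against 1.94 to 8.10. At 24 h 3 were higher, with 4.13 to 19.1 against 0.299 to 1.48. Dendritic cell markers at 24 h showed 1 higher and 2 lower of 5, T cell markers 2 higher of 9, and of 5 NK cell markers 0 passed the limma test, with 1 higher at an unadjusted p under 0.05. Of the 11 follicular B cell markers 0 passed between genotypes at 0 h (limma), with 1 lower at an unadjusted p under 0.05, while Cr2 and Bank1 were lower in Bach2-/- at 24 h.

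Some of these marker counts rest on the 2 arrays that stand apart. Without them, the marginal zone markers higher in Bach2-/- at 0 h went from 4 to 2, and those lower at 24 h from 3 to 2. The T cell markers higher at 24 h went from 2 to 0, the macrophage markers from 2 to 1 and the erythroid and platelet markers from 3 to 2. The follicular markers lower at 24 h went from 2 to 1 and the dendritic cell markers lower from 2 to 1. The counts of B-1, plasma cell, neutrophil and NK cell markers between genotypes were the same without these arrays. Of all genes, 0.457% then passed at 0 h and 2.45% at 24 h. With the replicate block most of these counts were larger, as were the shares of all genes, 3.7% at 0 h and 18.7% at 24 h. Neutrophil markers then had 3 higher at each time, NK cell markers 1 at each time and erythroid and platelet markers 2 at 0 h. Marginal zone markers had 6 higher at 0 h, with 5 higher and 4 lower at 24 h. Plasma cell markers had 4 higher at each time, and B-1 markers had 3 higher and 1 lower at 0 h and 6 higher and 2 lower at 24 h. T cell markers and macrophage markers each had 3 higher at 24 h, and dendritic cell markers 2. Follicular markers had 1 lower at 0 h and 6 lower at 24 h.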

How the data were processed

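Total RNA of the 12 samples was labelled with Cy3 and hybridised to 1-colour Agilent arrays. Agilent Feature Extraction 10.7.3.1 turned the authors' scans into intensities, per the file headers, and its processed signal is background-subtracted and detrended. The scanner files' median signals, also deposited as intensities, served 1 alternative. The software's flags for controls, saturated or outlying spots and signal over background were used as deposited. The authors' table of all samples is in log2 units; against the scanner values they are log2 processed signal over the array's 75th percentile with each probe centred over the arrays (Pearson r 0.9998 to 0.9999). Its scale, centring and direction were found from the values, and its column medians ran from -0.27 to 0.50.

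Outlier spots (112 to 511 per array) were left out, spots of a probe averaged, the signal divided by the 75th percentile over probes, floored at 0.01 and taken to log2. No member is floored where it is well above background. 26413 of 55681 probes were named through RefSeq accessions. Group means were fitted with limma 3.58.1 (R 4.3.3) to the 30735 probes, or 22744 genes, that passed the filter; genes without a RefSeq name kept the file's name. With 3 arrays a group, an exact permutation test could not go below p = 0.1, and this number of arrays limits the precision. The fit was tested on simulated data with independent noise on each array. No slide or replicate effect was simulated, so this does not test the p-values under such effects.

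Named are the 6 members in every comparison with every probe, Bach2, the 5 genes most like Ahr and the 3 most like each other tested member, and up to 4 genes per pathway list that passed between genotypes. The members and lists were chosen with earlier results of these data known. The alternatives were quantile normalization, another background correction, other filters, the mean of a gene's probes, fewer groups in the fit, replicate and slide blocks, single slides, the deposited table and leaving out arrays.

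The labels number the replicates. Between groups, the 18 pairs of arrays with the same number had deviations from their group means that correlated at r 0.448 to 0.879. Other pairs correlated at 0.230 to 0.628 on slide 1 (12 pairs) and at -0.800 to -0.397 across slides. Deviations within a group cancel out, so positive correlations of some pairs force negative ones of others. The slide is part of this pairing.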

Additional observations from a re-analysis of the deposited data

Results flagged for a closer look

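The interaction term of the fit, which compares the 24 h change between genotypes, passed for Nqo1 and Npas4, neither of them a member of the pathway list itself. The fitted change of Nqo1 was 2.80 ± 0.46 larger on the log2 scale in Bach2-/- cells (limma adjusted p = 0.0285). The 0 h signals of both genotypes lay below background, so the size of this difference cannot be read. Nqo1 also entered the tests only through its 24 h groups. Over the alternatives the limma adjusted p of Nqo1 ran from 0.00174 to 0.0857, and the call was lost in 10 of 23 alternatives. The change of Npas4 was 2.61 ± 0.38 larger in Bach2-/- cells (limma adjusted p = 0.0131). Over the alternatives its adjusted p ran from 0.00199 to 0.105, and the call was lost in 5 of 24 alternatives. Leaving out both arrays that stand apart kept both calls.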

How the results depend on the processing

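Of the members, 1 passed between genotypes at 0 h, 1 at 24 h, 4 in each response and 0 in the difference of the 24 h changes. At 0 h the count fell to 0 with only the compared groups fitted and without the 2 arrays that stand apart, and was 0 to 1 on leaving out single arrays. At 24 h it was 3 with quantile normalization, with the replicate block and with the slide block. It was 2 with the percentile over spots, with probes averaged per gene and on slide 1 alone, and 0 with no filter, the filter over all 12 arrays, only the compared groups, the deposited table, or without both arrays that stand apart. On leaving out single arrays it was 0 to 2. In both responses it was 4 on leaving out any array and 2 under the filter over all 12 arrays, which leaves 3 members tested. In the difference of the 24 h changes it was 2 with either block, 1 on slide 1 alone and 0 on leaving out any array. With the replicate block no other call of a member changed.

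Over all genes, 143, 678, 4667, 3010 and 72 passed in the comparisons in that order. The replicate block gave 841, 4244, 10685, 7609 and 974, and the slide block 726, 3469, 10213, 7054 and 779. Quantile normalization gave 219 at 0 h, normexp gave 62, 326, 3093 and 41 (all but the Bach2-/- response), the filter over all 12 arrays 78, 360 and 31 (genotypes and difference), and only the compared groups 83, 291 and, in the Bach2-/- response, 1948.

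Sign changes were found for values that had not passed. Arnt at 0 h became -0.068 with quantile normalization, -0.052 on slide 1 alone and -0.18 without both arrays that stand apart, and ran from -0.18 to 0.14 on leaving out single arrays. Arnt at 24 h became 0.011 (quantile) and 0.085 (without both), and ran from -0.29 to 0.11. Its 24 h change became 0.074 in WT and 0.035 in Bach2-/- with probes averaged, and 0.035 in Bach2-/- without both. Its difference of changes became 0.079 (quantile) and 0.26 (without both), and ran from -0.31 to 0.092. Cyp1a1 at 0 h, below background, became 0.013 (quantile) and 0.050 (normexp). Tiparp at 0 h ran from -0.40 to 0.041 on leaving out single arrays. The difference of changes became -0.14 for Ahrr (normexp) and 0.20 for Ahr (probes averaged). The causes were not tested.

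Normexp used median signals, and it and the percentile over spots were chosen after seeing the data. A constant was added to every signal under normexp, which shrinks differences of dim probes. Under normexp the Cyp1a1 rises fell to 2.30 and 4.48 on the log2 scale. Slide 2 alone has 1 array per group and gives no test. Signals near background limit Ahrr, Cyp1a1, Cyp1b1 and the dim Ahr probe.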
